A study of Mus musculus with 9 samples.

Results

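The serine and one-carbon metabolism enzymes were followed in MyC-CaP cells, a mouse prostate cancer line derived from a tumor driven by a human MYC transgene under a prostate-specific probasin promoter, over a time course with the HER3 ligand neuregulin 1 (NRG1). The set was chosen by name, with earlier results of these data known. The 10 genes whose symbols matched the table were taken, of 15552 protein-coding genes in all, and each of the 10 had enough counts to be tested. They were Phgdh, Psat1 and Psph of the serine synthesis pathway, Shmt2, Mthfd2, Mthfd1l and Aldh1l2 of the mitochondrial folate arm, and Shmt1, Mthfd1 and Aldh1l1 of the cytosolic arm. Per the labels, every culture was first starved for 6 to 12 h in medium that lacked serum and calcium, recombinant NRG1 was given at 15 ng/mL, and cultures were harvested for total RNA after 0, 12 or 24 h, in 3 biological replicates each. The labels call the cultures of all 3 time points NRG1-treated, and the 0 h cultures served here as the baseline. Libraries kept without NRG1 for 12 or 24 h were not analysed here, so time in the starvation medium and time with NRG1 cannot be told apart. All libraries came from 1 cell line plated in triplicate wells, so p-values measure the spread between these cultures.

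Serine is made from a glycolytic intermediate in a short series of steps: PHGDH oxidizes 3-phosphoglycerate, PSAT1 transfers an amino group to the product, and PSPH removes the phosphate. The serine hydroxymethyltransferases then split serine into glycine and a one-carbon unit carried by tetrahydrofolate, SHMT2 in mitochondria and SHMT1 in the cytosol. In mitochondria the unit is oxidized by MTHFD2 and released as formate by MTHFD1L, or oxidized to carbon dioxide by ALDH1L2. In the cytosol the trifunctional MTHFD1 interconverts these folates and ALDH1L1 oxidizes the formyl form. Formate from mitochondria feeds purine and thymidylate synthesis, and the pathway is known for its high activity in proliferating and cancer cells.

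Library totals ranged from 28467089 to 39239760 counts. The 12 h replicate 3 and the 0 h replicate 1 stood apart from the other replicates of their groups: over genes, the chi-square per degree of freedom against the other replicates was 10.2 and 10.3 for the first and 7.63 and 6.75 for the second, while the remaining pair gave 4.33 and 4.22. The 12 h replicate 3 was the highest of its group for Psat1, Psph, Shmt2, Mthfd2, Mthfd1l and Aldh1l2 and the lowest for Phgdh, Shmt1 and Mthfd1. The share of counts from mitochondrially encoded genes was 1.41% to 1.498% at 0 h, 1.12% to 1.18% at 12 h and 1.21% to 1.36% at 24 h, which moved with time, and its part in the results was not tested. The labels describe the cells as epithelial-like. Of the defining epithelial markers, Epcam reached at most 0.0897 CPM (counts scaled by library size) and Cdh1 at most 0.142 CPM, so both were near 0, whereas the prostate gene Hoxb13 averaged 92.2 CPM. Krt8 averaged 21.2 CPM and Krt18 0.316 CPM. The summed fibroblast markers ranged from 15.3 to 18.01 CPM over all libraries, nearly all of it Pdgfra, the summed immune markers from 0.390 to 1.05 CPM and the summed endothelial markers from 0 to 0.255 CPM.

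The promoters of the serine synthesis genes and of the folate enzymes were searched because these genes differed in whether they rose. RefSeq promoter windows on GRCm38.p6 were found for 9 of the 10 genes, with Aldh1l2 unmatched, and gave 10 windows since Psat1 has a pair of start sites. Of the genes printed here, only Shmt1 did not rise. The windows of Mthfd1l, Mthfd1, Aldh1l1 and the second Psat1 start were searched but are not printed. For Psat1, Mthfd2, Shmt1 and Aldh1l1, the windows lie inside the gene spans given below. The upstream ends of these spans were not searched. The sequences run 5′ to 3′ on the gene's own strand over the 250 bases before the start, and capitals mark matches to the motifs named after them.
Phgdh (chr3:98339970-98340219, minus strand): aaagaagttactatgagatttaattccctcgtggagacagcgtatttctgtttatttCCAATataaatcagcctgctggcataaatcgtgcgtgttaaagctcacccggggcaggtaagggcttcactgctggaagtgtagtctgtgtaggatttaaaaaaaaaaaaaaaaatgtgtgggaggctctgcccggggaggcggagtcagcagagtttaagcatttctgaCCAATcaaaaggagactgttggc
Psat1 (chr19:15925060-15925309, minus strand): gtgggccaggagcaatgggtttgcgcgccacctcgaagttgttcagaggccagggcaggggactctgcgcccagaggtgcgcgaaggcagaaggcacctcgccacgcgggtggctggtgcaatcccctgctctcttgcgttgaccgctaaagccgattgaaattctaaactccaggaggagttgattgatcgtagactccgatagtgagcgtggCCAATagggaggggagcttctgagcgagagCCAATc
Psph (chr5:129787254-129787503, minus strand): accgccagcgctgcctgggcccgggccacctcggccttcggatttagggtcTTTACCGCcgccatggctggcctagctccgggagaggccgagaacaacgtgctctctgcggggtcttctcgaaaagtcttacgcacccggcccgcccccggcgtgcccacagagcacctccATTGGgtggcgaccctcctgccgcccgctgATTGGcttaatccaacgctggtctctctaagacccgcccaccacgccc
Shmt2 (chr10:127522445-127522694, minus strand): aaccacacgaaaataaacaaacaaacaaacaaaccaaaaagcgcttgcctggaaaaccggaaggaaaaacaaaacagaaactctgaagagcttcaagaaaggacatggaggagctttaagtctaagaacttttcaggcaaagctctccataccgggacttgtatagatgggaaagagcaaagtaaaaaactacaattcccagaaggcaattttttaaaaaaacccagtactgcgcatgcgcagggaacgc
Mthfd2 (chr6:83317605-83317854, minus strand): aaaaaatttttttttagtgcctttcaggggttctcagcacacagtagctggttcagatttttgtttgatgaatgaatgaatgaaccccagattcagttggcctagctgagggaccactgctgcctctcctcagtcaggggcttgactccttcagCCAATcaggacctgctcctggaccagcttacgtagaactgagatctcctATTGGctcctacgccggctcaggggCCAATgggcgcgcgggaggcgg
Shmt1 (chr11:60811266-60811515, minus strand): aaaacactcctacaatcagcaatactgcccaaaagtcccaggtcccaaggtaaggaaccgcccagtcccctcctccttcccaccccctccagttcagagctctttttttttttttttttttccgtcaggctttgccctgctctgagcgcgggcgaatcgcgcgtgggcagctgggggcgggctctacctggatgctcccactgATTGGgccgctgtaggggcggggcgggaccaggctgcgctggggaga
The 4 motifs were searched on both strands in 300 bases, from 250 before to 50 after each start. The ATF4 and CEBP composite element TGATGNAA was present in 0 of 10 windows, against 3.97% of 32851 mouse promoters, and the E-box CACGTG in 0 of 10, against 7.15%. At shares this low, 10 windows are too few for an absence to set these genes apart. The E2F motif TTTNNCGC was present in 2 of 10, in Psph at position -199 and in Shmt2 at +29, past the printed stretch, against 5.17% of promoters. The CCAAT box, searched only after the sequences had been seen, was present in 7 of 10 windows and in 37.4% of promoters. It lay at -193 and -23 in Phgdh, at -36, -6 and +23 in the first Psat1 window, at -78 and -48 in Psph, at -96, -47 and -22 in Mthfd2, at -103 and -63 in Aldh1l1, at -47 in Shmt1 and at -69 in Mthfd1, and no match was found in Shmt2, Mthfd1l or the second Psat1 window. Genes that rose and genes that did not were thus both among those with a CCAAT match, and a match describes letters, not binding.

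At 12 h, 7 of the 10 genes rose, none fell, and 3 did not pass the test, by edgeR's quasi-likelihood test at a Benjamini-Hochberg adjusted p of at most 0.05 over 11373 genes. Among all genes tested, 13.6% rose and 11.9% fell at 12 h, a comparison limited by a choice of genes made with earlier results known. At 24 h against 0 h, 6 of the 10 rose and none fell, where 9.67% of all genes rose and 7.76% fell. The median log2 fold change of the 10 genes was 0.29 at 12 h and 0.24 at 24 h, while that of all genes was -0.0028 and -0.0065. The changes were modest: only Aldh1l2 passed the further limit of 1.5-fold, at 12 h and at 24 h, a limit passed upward by 1.34% of all genes at 12 h and 1.68% at 24 h. The 3 cultures at 12 h lay wholly above those at 0 h for 7 of the 10 genes, as they did for 19.9% of all genes, and those at 24 h for 7 of 10, as for 17.6% of all genes. The 3 time points differed for the 7 genes that rose at 12 h in the edgeR test over all time points at once, which 27.4% of all genes passed. With any single library left out, including the pair that stood apart, 7 genes rose at 12 h and 6 at 24 h. The comparisons at 12 and 24 h share their 0 h libraries. In bulk RNA, more RNA per cell and more cells in a given state cannot be told apart.

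**Figure D1:**
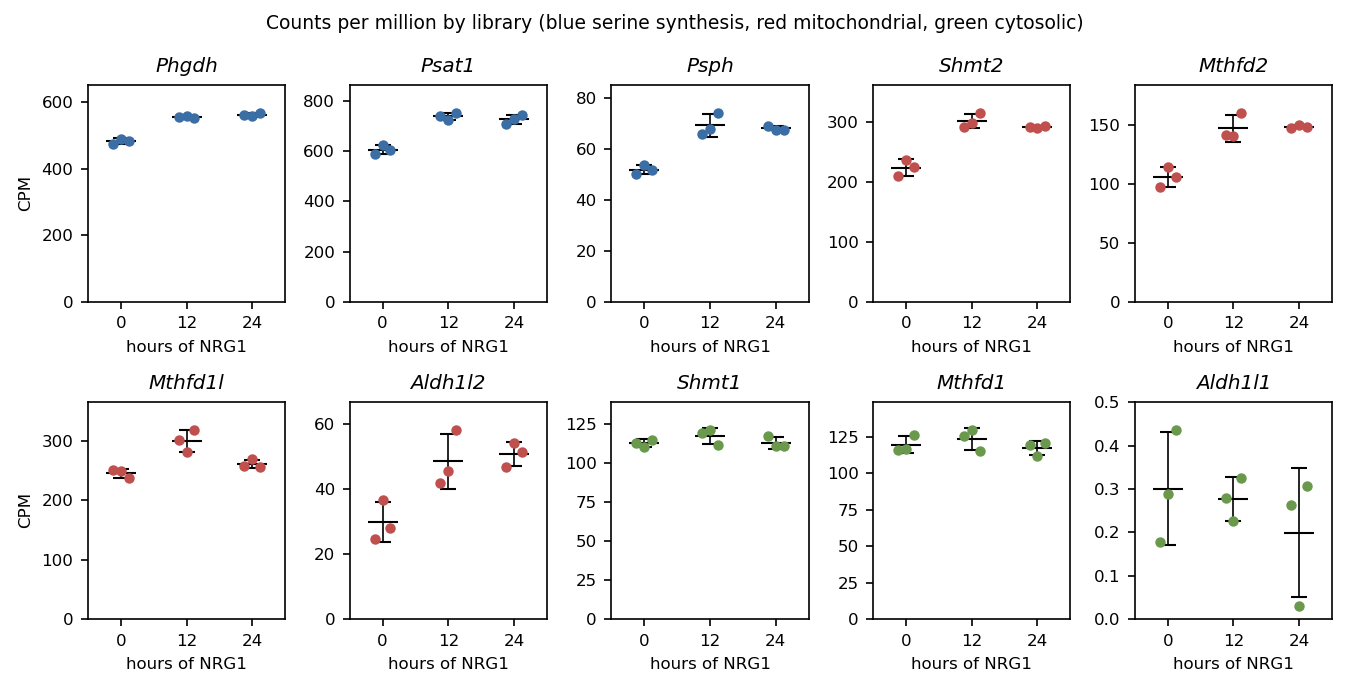
CPM (vertical axes, each from 0) at 0, 12 and 24 h of NRG1 (horizontal axes) for the 10 genes, with 1 point per library and bars for the mean ± SD of 3 libraries. The 12 h points lie above the 0 h points for the blue serine synthesis and red mitochondrial genes, while the green cytosolic genes overlap across time.

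The 3 serine synthesis genes all rose at 12 and 24 h, and none passed the test between 12 and 24 h. Phgdh, which encodes the first enzyme of the pathway (chr3:98313170-98339990, minus strand, GRCm38), stood at 475, 491 and 485 CPM at 0 h, at 556, 559 and 554 CPM at 12 h and at 562, 558 and 569 CPM at 24 h. The groups at 12 and 24 h did not overlap the 0 h group. Its log2 fold change was 0.20 (SE 0.032, adjusted p = 0.000194 in edgeR) at 12 h, a rise of 15.1%, and 0.22 (adjusted p = 0.000120) at 24 h. Psat1, the aminotransferase gene (chr19:15904678-15947337, minus strand), stood at 589, 625 and 603 CPM at 0 h, at 738, 723 and 752 CPM at 12 h and at 707, 729 and 742 CPM at 24 h. Every culture with NRG1 for 12 or 24 h was above every 0 h culture. Psat1 had a log2 fold change of 0.28 (SE 0.035, adjusted p = 2.29e-05 in edgeR) at 12 h and 0.26 (adjusted p = 6.16e-05) at 24 h.

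Psph, the phosphatase gene (chr5:129765558-129787449, minus strand), changed by more than the other serine synthesis genes in estimated size, although that difference was not tested. It stood at 50.1, 53.7 and 51.8 CPM at 0 h, at 65.9, 67.9 and 74.3 CPM at 12 h and at 69.1, 67.7 and 67.7 CPM at 24 h. The later groups again lay above the 0 h group. Psph had a log2 fold change of 0.42 (SE 0.049, adjusted p = 1.27e-05 in edgeR) at 12 h, or 33.4%, and 0.39 (adjusted p = 2.52e-05) at 24 h. In the annotation 10.4% of its exonic bases lie opposite Cct6a, and whether the counting used strand was not stated, so reads of both genes cannot be told apart there.

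All 4 genes of the mitochondrial folate arm rose at 12 h, and 3 of the 4 at 24 h. Shmt2, which opens the arm by splitting serine (chr10:127517123-127522444, minus strand), stood at 210, 237 and 226 CPM at 0 h, at 292, 299 and 316 CPM at 12 h and at 292, 290 and 294 CPM at 24 h. The 3 cultures at 24 h were closer to each other than those at 0 or 12 h, and none reached down to the 0 h values. Shmt2 had a log2 fold change of 0.43 (SE 0.044, adjusted p = 3.79e-06 in edgeR) at 12 h and 0.38 (adjusted p = 1.23e-05) at 24 h. Mthfd2, the mitochondrial methylenetetrahydrofolate dehydrogenase (chr6:83305691-83325908, minus strand), stood at 96.9, 114 and 105 CPM at 0 h, at 141, 140 and 160 CPM at 12 h and at 147, 149 and 148 CPM at 24 h. Here too the 0 h group lay below all later cultures. Mthfd2 had a log2 fold change of 0.47 (SE 0.057, adjusted p = 1.66e-05 in edgeR) at 12 h, or 38.9%, and 0.49 (adjusted p = 1.40e-05) at 24 h.

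Mthfd1l, which releases formate from mitochondria (chr10:3973118-4167081, plus strand), rose at 12 h and was lower again at 24 h. It stood at 251, 249.2 and 238 CPM at 0 h, at 301, 282 and 319 CPM at 12 h and at 258, 270 and 256 CPM at 24 h. The 12 h cultures were above all others, and the 24 h cultures sat just above the 0 h cultures without overlap. Mthfd1l had a log2 fold change of 0.29 (SE 0.044, adjusted p = 0.000133 in edgeR) at 12 h and 0.088 (95% confidence interval -0.0040 to 0.18, adjusted p = 0.187) at 24 h. Between 12 and 24 h it fell by 0.20 on the log2 scale (SE 0.044, adjusted p = 0.0132 in edgeR). This fall no longer passed without 12 h replicate 1 (-0.20, edgeR adjusted p = 0.0579), without 24 h replicate 1 (-0.19, adjusted p = 0.0776) or without 24 h replicate 3 (-0.18, adjusted p = 0.0816).

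Aldh1l2, the mitochondrial formyltetrahydrofolate dehydrogenase (chr10:83487450-83534140, minus strand), was the low-level gene of the arm and had the highest estimated fold change of the 10 genes. It stood at 24.7, 36.6 and 27.8 CPM at 0 h, at 41.6, 45.5 and 58.0 CPM at 12 h and at 46.8, 54.1 and 51.4 CPM at 24 h. No later culture fell to the highest 0 h value, although the 0 h and 12 h cultures were widely spread. Aldh1l2 had a log2 fold change of 0.69 (SE 0.12, adjusted p = 0.000541 in edgeR) at 12 h, or 1.61-fold, and 0.76 (SE 0.12, adjusted p = 0.000289) at 24 h, or 1.70-fold. At 12 h the size depended on single cultures: the log2 fold change was 0.58, just under 1.5-fold, without 0 h replicate 1, and 0.55 without 12 h replicate 3, with the adjusted p still under 0.05 in both. Its lower confidence bounds, 0.43 and 0.51, lay under 1.5-fold at both times, and no gene of the set passed edgeR's test against a 1.5-fold change. Of the exonic bases of Aldh1l2, 14.1% lie opposite D10Wsu102e, where the counts of the genes cannot be told apart without strand.

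**Figure D2:**
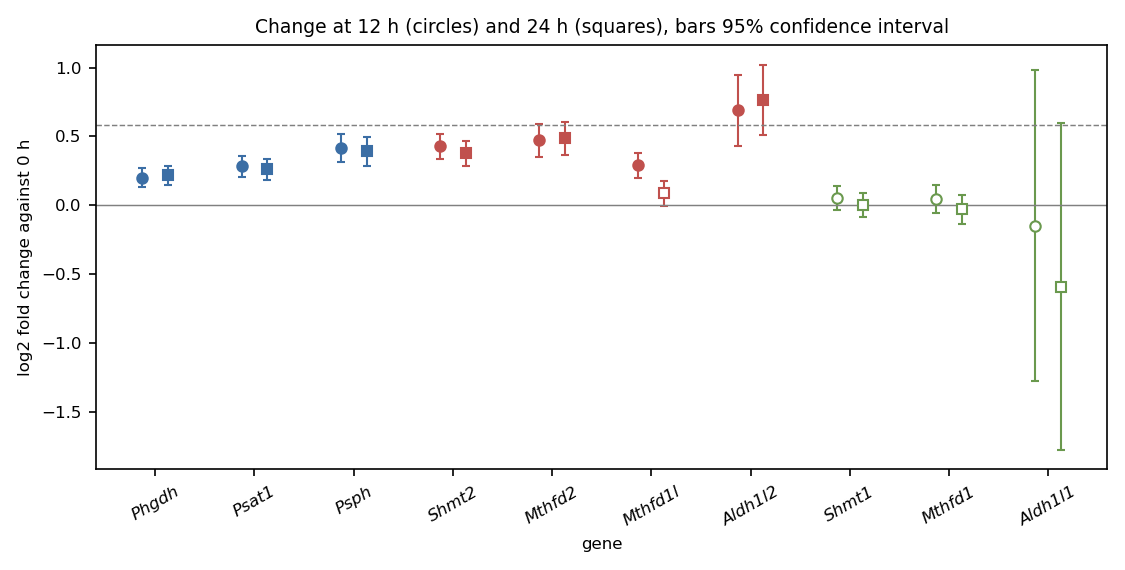
Log2 fold change against 0 h (vertical axis) for each gene (horizontal axis), with circles for 12 h, squares for 24 h and bars for the 95% confidence interval of the edgeR fit. Filled symbols had an adjusted p of at most 0.05, and the dashed line marks 1.5-fold: Aldh1l2 at 0.69 and 0.76 has its points above that line, and the cytosolic intervals span 0.

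None of the 3 cytosolic genes passed the test at either time. Shmt1, the cytosolic counterpart of Shmt2 (chr11:60788104-60811718, minus strand), stood at 113, 110 and 115 CPM at 0 h, at 119, 121 and 112 CPM at 12 h and at 117, 111 and 111 CPM at 24 h. The 3 groups overlapped. Shmt1 had a log2 fold change of 0.056 (95% confidence interval -0.031 to 0.14) at 12 h and 0.0018 (-0.085 to 0.089) at 24 h, with edgeR adjusted p = 0.349 and 0.984. The interval at 24 h thus left room for a change of about 0.09 in either direction, less than the lower bound of 0.29 for Shmt2 at that time. Mthfd1, the trifunctional cytosolic enzyme (chr12:76255298-76319803, plus strand), stood at 116, 117 and 126 CPM at 0 h, at 126, 130 and 115 CPM at 12 h and at 119, 112 and 121 CPM at 24 h. The groups overlapped here as well. Mthfd1 had a log2 fold change of 0.047 (-0.056 to 0.15) at 12 h and -0.029 (-0.13 to 0.075) at 24 h, with edgeR adjusted p = 0.526 and 0.750.

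Aldh1l1 (chr6:90486427-90600203, plus strand) was hardly detected, with 5, 11 and 15 counts at 0 h, 10, 7 and 10 counts at 12 h and 8, 1 and 12 counts at 24 h. Its mean was 0.301 CPM at 0 h, 0.277 CPM at 12 h and 0.199 CPM at 24 h, where 3 counts correspond to 0.0764 to 0.106 CPM. Its log2 fold change of -0.15 at 12 h had a 95% confidence interval of -1.27 to 0.98 and that of -0.59 at 24 h one of -1.77 to 0.60, so a change was not detectable at this depth (edgeR adjusted p = 0.876 and 0.533). In the annotation 11.05% of its exonic bases lie opposite Gm15756 and 2.33% on the same strand as Gm45901.

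The balance between the arms was described by ratios of counts within each library, which no scaling between libraries affects. The ratio of Shmt2 to Shmt1 was 1.86, 2.15 and 1.96 at 0 h, 2.45, 2.47 and 2.83 at 12 h and 2.49, 2.61 and 2.65 at 24 h. All 6 later values were above the highest 0 h value. The ratio of Mthfd2 to Mthfd1 was 0.836, 0.980 and 0.835 at 0 h, 1.12, 1.08 and 1.39 at 12 h and 1.23, 1.34 and 1.22 at 24 h. The later values again did not overlap the 0 h values. Per kilobase of exon this ratio was 1.13 ± 0.106 (SD, n = 3) at 0 h, 1.52 ± 0.213 at 12 h and 1.61 ± 0.0816 at 24 h, so it was above 1 at all 3 times, and the ratios of counts are not ratios of levels per length. The ratio of Mthfd1l to Mthfd1 was 2.17, 2.13 and 1.88 at 0 h, 2.39, 2.18 and 2.76 at 12 h and 2.16, 2.41 and 2.12 at 24 h, so that at 24 h it overlapped the 0 h range. Mthfd2l, a close relative of Mthfd2 that is also mitochondrial, served as a further denominator. The ratio of Mthfd2 to Mthfd2l was 4.24, 5.30 and 4.51 at 0 h, 6.65, 6.66 and 7.08 at 12 h and 7.07, 6.82 and 7.15 at 24 h. Mthfd2l itself had a log2 fold change of -0.067 (SE 0.061, adjusted p = 0.462 in edgeR) at 12 h and -0.097 (SE 0.060, adjusted p = 0.305) at 24 h. The ratio of Aldh1l2 to Aldh1l1 ranged from 63.9 to 1808 and rests on the 1 to 15 counts of Aldh1l1. These ratios were not tested.

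**Figure D3:**
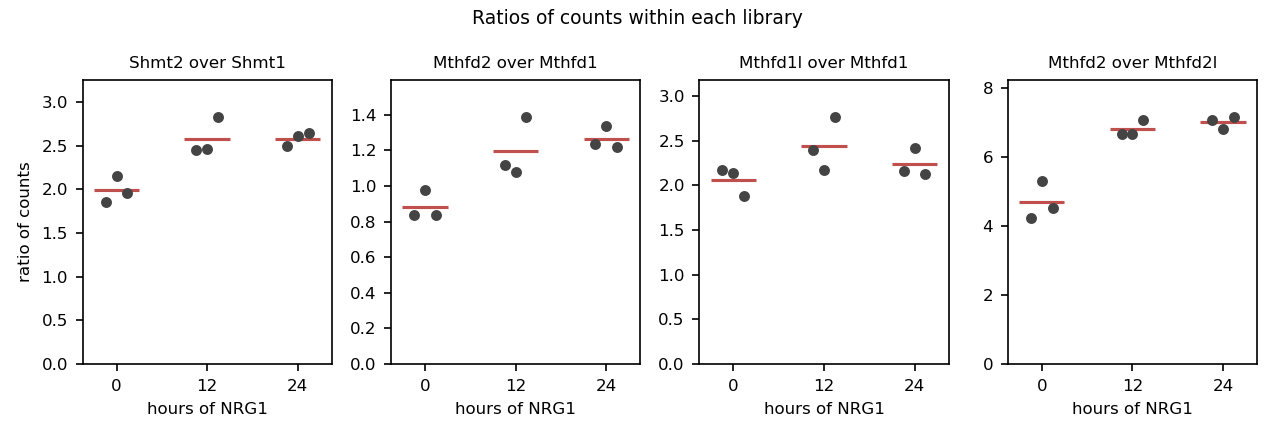
Ratio of counts (vertical axes, from 0) at 0, 12 and 24 h of NRG1 (horizontal axes), with 1 point per library and a red line for the mean of 3. The 12 and 24 h points lie above the 0 h points for Shmt2 over Shmt1, for Mthfd2 over Mthfd1 and for Mthfd2 over Mthfd2l, but Mthfd1l over Mthfd1 overlaps at 24 h, from 1.88 to 2.17 at 0 h and from 2.12 to 2.41 at 24 h.

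Levels of different genes were compared as CPM per kilobase of exon. At 0 h Phgdh was highest at 195, followed by Psat1 at 142, Shmt2 at 72.2, Mthfd1l at 55.5, Mthfd2 at 30.3, Shmt1 at 29.1, Mthfd1 at 26.9, Psph at 12.0, Aldh1l2 at 3.96 and Aldh1l1 at 0.0666 CPM per kb. Over the mean of all libraries, Phgdh ranked 197th and Psat1 245th of 11369 genes with a length, against 11258th for Aldh1l1. Mthfd2, Shmt1 and Mthfd1 were the neighbours that did not separate at 0 h, with libraries from 27.8 to 32.8, from 28.4 to 29.7 and from 26.1 to 28.4 CPM per kb. At 24 h Mthfd2 stood apart from both, at 42.2 to 42.9 CPM per kb against 28.6 to 30.2 for Shmt1. The serine synthesis pathway thus held both the highest and a lower level, Psph being well under Phgdh and Psat1 at each time.

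**Figure D4:**
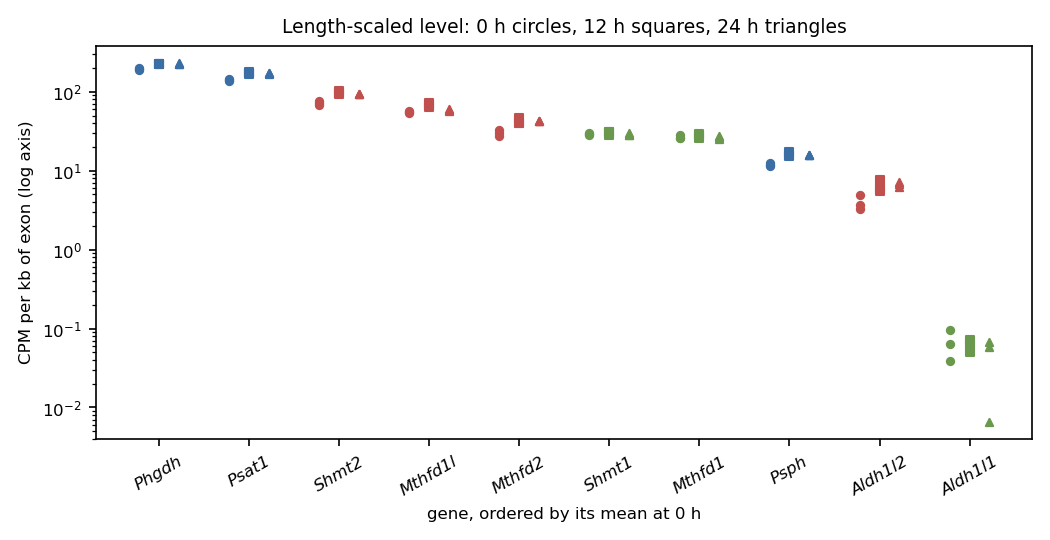
CPM per kb of exon on a log axis for the 10 genes, ordered by their mean at 0 h, with 1 symbol per library (circles 0 h, squares 12 h, triangles 24 h). The genes run from 195 CPM per kb for Phgdh down to 0.0666 for Aldh1l1 at 0 h.

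Between 12 and 24 h, 0 of the 10 genes rose and 1 fell, Mthfd1l, where 1.97% of all genes rose and 3.06% fell by the edgeR test. For Phgdh, Psat1, Psph, Shmt2 and Mthfd2 the log2 difference lay between -0.050 and 0.016, and that of Aldh1l2 was 0.073 (95% confidence interval -0.17 to 0.32). Across the 9 libraries the log2 CPM of Phgdh, Psat1, Psph, Shmt2, Mthfd2 and Aldh1l2 went together, with a Pearson r from 0.904 to 0.990 for each pair. Mthfd1l had an r of 0.610 to 0.738 with these 6 genes, while Shmt1 and Mthfd1 had an r of 0.801 with each other. The libraries of a time point share its level, so these values describe the time course as much as the spread within it.

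The genes whose pattern was most like that of 3 members were sought among 8361 genes with a mean of at least 10 CPM outside the lists. For Mthfd2 these were Asns, the asparagine synthetase gene, with an r of 0.995 over the 9 libraries, Pola1, a DNA polymerase subunit, with 0.993, and Cars, the cysteinyl-tRNA synthetase, with 0.993. For Psat1 they were Syne3 at 0.991, the helicase gene Blm at 0.991 and the replication clamp gene Pcna at 0.987. For Shmt1, which did not pass the test, the highest values were lower, at 0.943 for Polr2l, 0.940 for Psmc3 and 0.934 for Mrfap1. All are the highest of 8361 values over a shared time course, so they describe pattern and do not show shared control.

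Genes of neighbouring steps were counted beside all genes tested, of which 13.6% rose and 11.9% fell at 12 h. At 24 h, 9.67% of all genes rose and 7.76% fell. The lists are small, and their counts were not tested against these shares. Of 8 genes for glycine cleavage and mitochondrial folate partners, 1 rose at 12 h and 2 fell at 24 h. Dld, which encodes a shared subunit of the glycine cleavage system, went over the 3 times from 170 ± 4.03 CPM (SD, n = 3) to 188 ± 5.68 and 172 ± 2.48, a log2 fold change at 12 h of 0.14 (edgeR adjusted p = 0.00821). Slc25a32, the mitochondrial folate carrier, went from 73.0 ± 4.39 CPM to 67.3 ± 1.16 and 60.5 ± 4.20 and was lower at 24 h by a log2 fold change of -0.27 (SE 0.053, adjusted p = 0.00194 in edgeR). Of 6 genes reported for folate uptake, retention and reduction, 1 rose at 12 h and 0 at 24 h by the edgeR test. Slc19a1, the reduced folate carrier, went from 44.6 ± 0.829 CPM to 53.6 ± 1.45 and back to 44.0 ± 0.224, which was a rise of 0.27 on the log2 scale at 12 h (edgeR adjusted p = 0.000248) and a log2 fold change of -0.29 from 12 to 24 h (adjusted p = 0.000962).

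Of 6 genes of purine and thymidylate synthesis, 2 rose at 12 h and 1 at 24 h, and none fell. Among all genes tested, 13.6% rose at 12 h and 9.67% at 24 h. Not all of the 6 use a one-carbon unit themselves. Tyms, thymidylate synthase, stood at 12.8, 15.9 and 17.7 CPM at 0 h, at 21.5, 23.4 and 20.9 CPM at 12 h and at 20.9, 21.3 and 22.6 CPM at 24 h, above all 0 h values. Its log2 fold change was 0.50 (SE 0.090, adjusted p = 0.000687 in edgeR) at 12 h and 0.47 (adjusted p = 0.00141) at 24 h. Pfas, of a purine synthesis step that takes no one-carbon unit, had a log2 fold change of 0.21 (edgeR adjusted p = 0.00481) at 12 h. At 24 h its log2 fold change was 0.11 (adjusted p = 0.125). In the methionine cycle, 2 of 7 tested genes fell at 12 h, where 11.9% of all genes fell. At 24 h 0 of 7 passed, and Bhmt was not analysed here. The 2 were Mtr, methionine synthase, with a log2 fold change of -0.30 at 12 h (edgeR adjusted p = 0.00949), and Mat2a, which makes S-adenosylmethionine, with -0.22 (adjusted p = 0.00756) and 11.3% of its exonic bases opposite Particl. The Mat2a groups overlapped, with 113.1 CPM in the lowest 0 h culture and 113.6 CPM in the highest 12 h culture. Those of Mtr did not overlap.

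Of 10 tested genes of serine and glycine use and transport, 2 rose and 1 fell at 12 h, and 3 rose and 1 fell at 24 h. Among all genes tested, 13.6% rose and 11.9% fell at 12 h, and 9.67% rose and 7.76% fell at 24 h. The pair of transsulfuration genes, through which serine carbon enters cysteine, moved in opposite directions. Cth stood at 24.7, 31.2 and 26.2 CPM at 0 h and between 39.1 and 48.6 CPM in the 6 later cultures, having a log2 fold change of 0.64 (SE 0.084, adjusted p = 3.73e-05 in edgeR) at 12 h and 0.66 (adjusted p = 3.03e-05) at 24 h. Cbs fell from 20.2 ± 1.80 CPM to 16.9 ± 0.993 and 15.2 ± 1.26, by a log2 fold change of -0.25 (edgeR adjusted p = 0.0310) and -0.41 (adjusted p = 0.00204). Of a list of 6 genes that mixes regulators with genes of the amino acid response, 3 rose at 12 h and 4 at 24 h. None of them fell. Atf4, a transcription factor of the amino acid response known to act on serine synthesis genes, stood at 308, 347 and 324 CPM at 0 h, at 429, 423 and 489 CPM at 12 h and at 436, 446 and 434 CPM at 24 h. Its later groups did not overlap the 0 h group, and its log2 fold change was 0.45 (SE 0.052, adjusted p = 1.11e-05 in edgeR) at 12 h and 0.43 (adjusted p = 2.27e-05) at 24 h. Trib3 and Atf5, further genes of that response, had log2 fold changes of 0.67 and 0.26 at 12 h and of 0.60 and 0.47 at 24 h, with edgeR adjusted p of at most 0.000596. Myc, whose human transgene drives the parent tumor, stood at 71.0 ± 3.50, 63.6 ± 8.54 and 75.0 ± 0.962 CPM and did not pass between any pair of times, with edgeR adjusted p = 0.113 at 12 h and 0.481 at 24 h. The test over all 3 times gave an edgeR adjusted p of 0.0431 for Myc. The counts are those assigned to the mouse gene, and reads of the human transgene were not separated here.

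**Figure D5:**
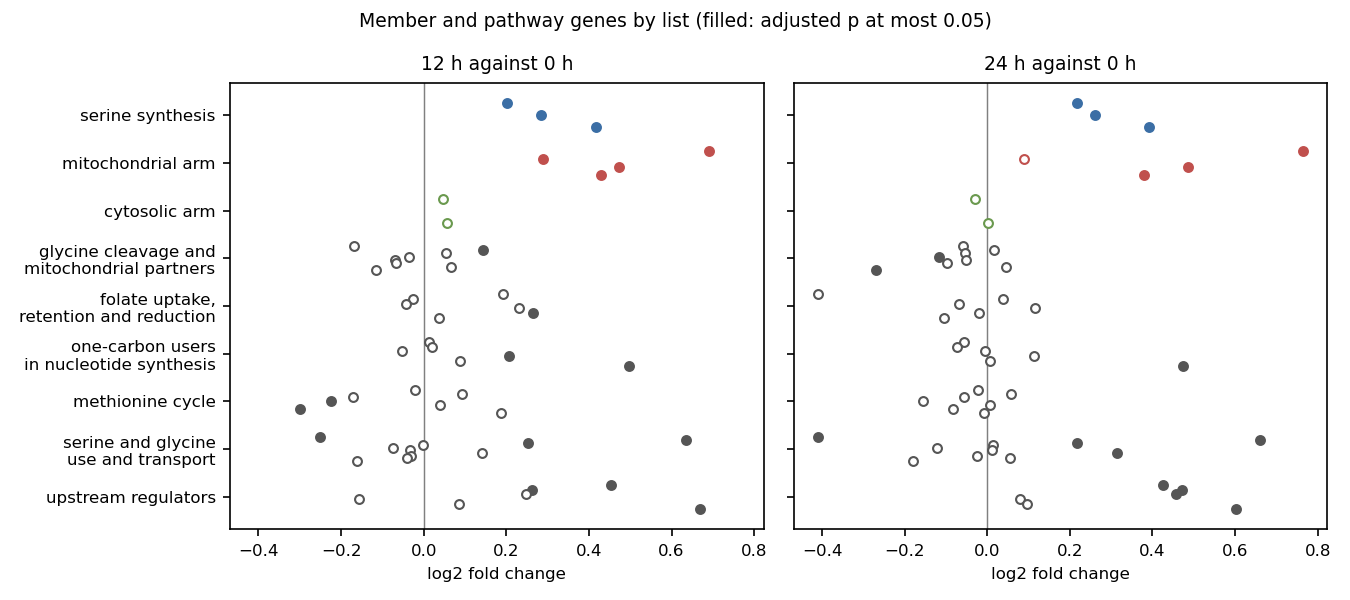
Log2 fold change (horizontal axes) at 12 h (left) and 24 h (right) against 0 h for each tested gene, 1 point per gene in the row of its list, with Aldh1l1 left out for its low counts, genes not reported left out, and filled points for an adjusted p of at most 0.05. The blue and red points lie right of 0 at both times, whereas the folate, methionine and transport rows hold points on both sides, from Cbs at -0.41 to Cth at 0.66 at 24 h. The row of one-carbon users also holds nucleotide synthesis genes that use none, and that of upstream regulators also holds response genes.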

How the data were processed

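mRNA libraries were sequenced from 9 MyC-CaP cultures, 3 each at 0, 12 and 24 h, as paired-end reads of 150 bp. Per the study's methods, the authors trimmed reads with Cutadapt, aligned them with STAR to GRCm38.p6 under a GENCODE annotation and counted with featureCounts, and strand and multi-mapping settings are not given in the sources used here. The deposited values are raw counts per gene for protein-coding genes. Total counts per library (28467089 to 39239760) set the precision, and 3 counts were taken as the floor. Genes were filtered with filterByExpr, which left 11373, and scaled by TMM in edgeR 4.0.16 (R 4.3.3). All libraries were fitted together with glmQLFit and glmQLFTest, in both directions, with Benjamini-Hochberg adjustment over all genes tested. SE and confidence intervals of 95% come from that fit, and the procedure was tested on simulated counts. CPM are means ± SD. Log2 CPM used a prior count of 2. Exon lengths and overlaps came from another GENCODE release on GRCm38, and promoters from RefSeq. The genes and the lists around them were chosen with earlier results of these data known. Within each surrounding list, up to 2 genes with the largest change past the test and a mean of at least 1 CPM were named, and Atf4, Myc, Mthfd2l and Tyms in any case. Some genes of these lists and some marker genes are not reported here. Alternatives were DESeq2 1.42.0, its size factors, total counts, other filters, fewer time points, a replicate block and leaving out each library.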

Additional observations from a re-analysis of the deposited data

How the results depend on the processing

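Under DESeq2, its size factors, total counts, no filter on low counts, a filter at a mean of 10 CPM and fits of only the time points compared, the count of genes past the adjusted p stayed at 7, 6 and 1 for 12 h against 0 h, 24 h against 0 h and 24 h against 12 h. Same-numbered replicates deviated together with a correlation of -0.0744 to 0.131, so the numbers were not taken as pairs; with a replicate block the counts were 7, 6 and 1, and it changed no call. Against a 1.5-fold change (glmTreat), 0 genes passed at 12 h and 0 at 24 h, where 1 had passed by size. Leaving out each library gave 0 to 1 genes past 1.5-fold at 12 h and 0 to 1 past the adjusted p between 12 and 24 h. Mthfd1l between 12 and 24 h ranged from -0.24 to -0.16 in log2 fold change. Signs that turned belonged to differences past the threshold in no fit: at 24 h against 0 h, Shmt1 (-0.023 to 0.023) and Mthfd1 (-0.050 to 0.017), and between 12 and 24 h, Psat1 (-0.033 to 0.00026), Psph (-0.061 to 0.022), Mthfd2 (-0.018 to 0.072), Aldh1l2 (-0.027 to 0.22) and Aldh1l1 (-0.95 to 0.045). DESeq2 gave no adjusted p for 1 of the 30 tests of single genes. The 10 CPM filter removed Aldh1l1, which was absent from some other fits as well. Low counts limited what could be seen for Aldh1l1.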
